A study of Homo sapiens with 8 samples.

Results

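The data described here are the peaks of YAP in HuCCT1, an established human cholangiocarcinoma (bile duct cancer) cell line, as given by 2 chromatin immunoprecipitation and sequencing (ChIP-seq) libraries. In the first library, titled HuCCT1 HAYAP5SA, chromatin was precipitated with an antibody against the HA tag carried by YAP5SA, and in the second, titled HuCCT1 YAP, with an antibody against YAP itself. All peaks of both deposited lists were taken, 847 from HA-YAP5SA and 454 from YAP, together 1301 of the 51828 peaks in the 5 lists at hand, and a peak was called shared when it overlapped a peak of the other list by at least 1 bp. The TEAD1, TEAD4 and TAZ lists of the same cell line were used to describe these sites, and the input, IgG and GFP libraries, meant as background in the design, were not analysed here. Throughout, a protein present at, carried by or missing from a site means a called peak, or none, in the list of that name. A missing peak was not shown to be an unbound site, and YAP so used means the YAP antibody list. There was 1 library per side and no replicate, so no difference between the lists has a replicate check and no test between them was made. The antibody and the YAP form changed together and their parts cannot be told apart. The labels do not say whether the cells of the YAP library carried the tagged form, how that form was introduced, or whether the line was 1 clone. Peak lists hold no expression values, so the identity of the cells was not checked.

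YAP is a transcriptional coactivator at the end of the Hippo pathway. It has no DNA-binding domain of its own and reaches chromatin mainly through the TEAD factors, often at enhancers far from promoters. The LATS kinases phosphorylate YAP on serines, which holds it in the cytoplasm and marks it for degradation. In YAP5SA these serines are replaced by alanine, so that the protein escapes this control and accumulates in the nucleus. TAZ, the product of WWTR1, is the paralogue of YAP. An antibody against YAP can bind any YAP form that keeps its epitope, whereas an HA antibody binds only the tagged protein.

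Few sites were found by both precipitations. Both TEAD1 and TEAD4 were at 53 of the 55 overlapping HA-YAP5SA peaks, near the share over that whole list (781 of 847, 92.2%). A YAP peak overlapped 55 of the 847 HA-YAP5SA peaks (6.49%, exact 95% Clopper-Pearson interval 4.93 to 8.37%). An HA-YAP5SA peak overlapped 54 of the 454 YAP peaks (11.9%, 9.06 to 15.2%). For scale, 80 of the 38186 TEAD1 peaks overlapped a YAP peak (0.210%) and 787 overlapped an HA-YAP5SA peak (2.06%). The intervals cover counting error over peaks only, and peaks of 1 library are not replicates. The share in the HA-YAP5SA list was 11.5% when only its 454 best-scoring peaks were kept, and the share in the YAP list was 47.3% when YAP peaks with another YAP peak within 25 kb were left out. When peaks below the median of their own list were dropped, the shares were 2.12% and 3.96%.

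Overlapping peaks of the 2 lists lay at nearly the same position, although the overlap rule itself limits how far apart their centres can be. The 55 overlapping pairs joined 55 HA-YAP5SA peaks with 54 YAP peaks, since 1 YAP peak on chromosome 3 (197216990 to 197217255) met 2 neighbouring HA-YAP5SA peaks. The distance between the centres of a pair had a median of 39.5 bp, quartiles of 24.75 and 56.5 bp and a maximum of 130.5 bp. The YAP peak lay wholly inside the HA-YAP5SA peak in 38 of the 55 pairs, the HA-YAP5SA peak was the wider one in 49, and the median ratio of HA-YAP5SA to YAP width was 1.54. Overlaps ran from 97 to 2144 bp, so no pair was near the 1 bp limit. On the other side of that limit, the closest HA-YAP5SA peak without YAP was 37 bp from a YAP peak and the closest YAP peak without HA-YAP5SA was 786 bp from an HA-YAP5SA peak. In each of the 53 pairs that had a TEAD1 peak, that peak spanned both the HA-YAP5SA and the YAP peak.

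**Figure D1:**
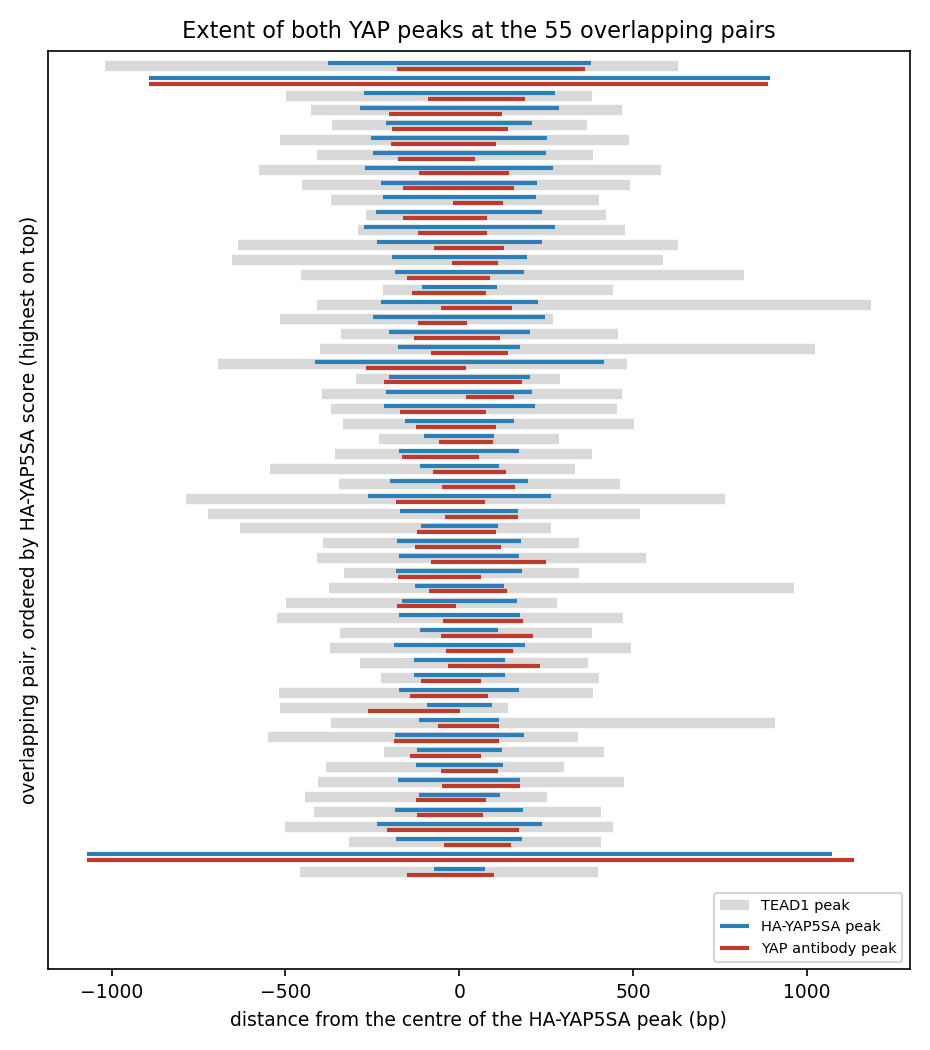
Extent of the HA-YAP5SA peak (blue), the YAP antibody peak (red) and the TEAD1 peak (grey) at the 55 overlapping pairs, as distance in bp from the centre of the HA-YAP5SA peak, ordered by HA-YAP5SA score from the top. The red bars are mostly shorter than the blue ones and lie within them, and the 2 pairs without a grey bar are the widest.

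The site with the highest HA-YAP5SA score was also the one with the highest YAP score among shared sites. It lay on chromosome 14, where the HA-YAP5SA peak (hg19 62221732 to 62222489) had a score of 1028 and the first rank of its list, and the YAP peak inside it (62221930 to 62222473) a score of 924 and rank 13 of its list. The next shared site by HA-YAP5SA score, at the start of chromosome 5 (10002 to 11787), held rank 3 with a score of 890 and YAP rank 74, and it was the 1 shared site on neither TEAD. At most other leading sites the ranks of the lists lay far apart. On chromosome 1 the HA-YAP5SA peak at 210438953 to 210439502 held rank 4 with a score of 844, while its YAP peak held rank 290 with a score of 114. The peak at 109045566 to 109046140 of the same chromosome held HA-YAP5SA rank 5 and YAP rank 134, and the one on chromosome 13 at 111137867 to 111138288 held ranks 7 and 180. The chromosome 1 peaks at 19378944 to 19379450 and 246598833 to 246599331 were closer, with HA-YAP5SA ranks 9 and 11 and YAP ranks 69 and 99. On chromosome 10 (96157444 to 96157984) and chromosome 2 (12164306 to 12164755) the HA-YAP5SA ranks were 12 and 16 and the YAP ranks 199 and 232. The shared site with HA-YAP5SA rank 17, on chromosome 18 (71984028 to 71984469), had only YAP rank 419, near the end of that list. Scores of different lists have no common scale, so these are ranks within each list and not amounts of protein.

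Taken in the order of the YAP score, the shared sites next to that on chromosome 14 were a peak on chromosome 21 (YAP 9825439 to 9827646, score 614, rank 26), the chromosome 1 peak with rank 69, the peak at the start of chromosome 5 (10001 to 11783, score 344, rank 74) and the chromosome 1 peak with rank 99. A site on chromosome 3 followed (YAP 101561359 to 101561757, score 228, rank 120), at which HA-YAP5SA had rank 62. The chromosome 12 site (46888158 to 46888405) had YAP rank 187 and HA-YAP5SA rank 96. Over the 55 pairs the scores of both lists had a Spearman correlation of 0.37, and over the 53 pairs with TEAD1 it was 0.41. In the same 53 pairs the Spearman correlation with the TEAD1 score was 0.62 for HA-YAP5SA and 0.30 for YAP. These correlations describe sites of the same libraries that were required to pass the threshold of both lists.

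The peaks on chromosomes 5 and 21 stood apart from the other shared sites. They were the only shared sites without a TEAD1 peak, and the chromosome 5 site had no TEAD4 peak either. They were also the widest shared peaks in both lists. On chromosome 5 the HA-YAP5SA peak (10002 to 11787) was 1786 bp and the YAP peak 1783 bp wide, and their starts and ends differed by 1 and 4 bp. On chromosome 21 the widths were 2144 bp (9825439 to 9827582) and 2208 bp, with the same start and ends 64 bp apart. That site overlapped a TAZ peak and a TEAD4 peak. Among the 53 pairs with TEAD1, no HA-YAP5SA peak was wider than 833 bp and no YAP peak wider than 544 bp. The chromosome 5 site begins about where the sequence of the assembled chromosome begins, next to the telomere.

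Shared sites took opposite places in the 2 rankings. In the HA-YAP5SA list they lay near the top, with a median score percentile of 87.5 (95% interval of the median 82.5 to 94.2), and 52 of 55 were in the upper 50% of the list. In the YAP list their median percentile was 31.6 (24.4 to 37.6), and 10 of 54 were in the upper 50%. That median was 47.6 (18.1 to 70.0) when only peaks in the upper 50% of their own list by score were kept and percentiles were recomputed. Few shared peaks were left under that cut. The low place in the YAP list held only against unshared YAP peaks with a YAP neighbour within 25 kb. Those 341 had a median YAP score of 162, the shared peaks 107, and the 59 unshared peaks without a neighbour 94.9. YAP was present at 20 of the 50 best HA-YAP5SA peaks (40%, interval 26.4 to 54.8%), at 16 of those with ranks 101 to 200 (16%, 9.43 to 24.7%) and at 4 of the 447 peaks beyond rank 400 (0.895%, 0.244 to 2.28%). The order was not strict, since only 4 of the 50 peaks with ranks 51 to 100 had YAP (8%, 2.22 to 19.2%). Among YAP peaks the tagged form was found at 2 of the 50 best (4%, 0.488 to 13.7%), at 33 of 200 with ranks 201 to 400 (16.5%, 11.6 to 22.4%) and at 11 of the last 54 (20.4%, 10.6 to 33.5%).

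**Figure D2:**
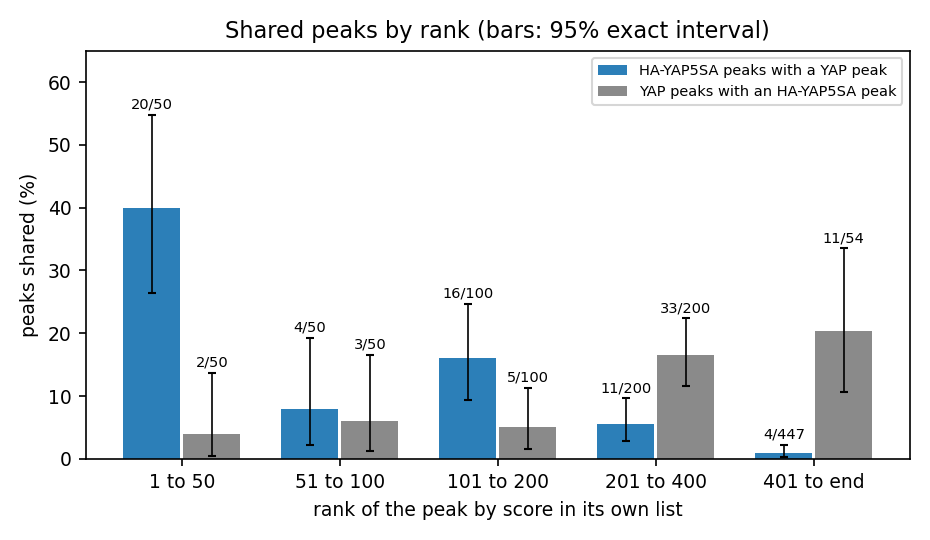
Share of peaks that overlapped a peak of the other list, by rank of the score within the peak's own list (bars, percent, with exact 95% intervals and counts above). The blue bars (HA-YAP5SA list) are highest at ranks 1 to 50, at 40%, and the grey bars (YAP list) at the last ranks, at 20.4%.

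Median width differed between the classes in both lists, again in opposite directions. The median width was 372 bp for HA-YAP5SA peaks that carried YAP (95% interval of the median 346 to 422 bp) and 218 bp for the others (207 to 225 bp). YAP peaks with HA-YAP5SA had a median width of 228 bp (210 to 248 bp), against 730 bp (648 to 805 bp) without. Among YAP peaks of 201 to 300 bp, 30 of 70 were shared (42.9%, 31.1 to 55.3%), whereas 1 of 120 peaks of 501 to 1000 bp was (0.833%, 0.0211 to 4.56%). The 2 shared YAP peaks wider than 1 kb, among 142 of that size, were those on chromosomes 5 and 21. The median width of YAP peaks without HA-YAP5SA was 1112.5 bp when both lists were restricted to peaks at or above their median score. Unshared YAP peaks with a YAP neighbour within 25 kb had a median width of 808 bp, and those without one 310 bp. In the HA-YAP5SA list, among peaks on both TEADs, the classes had alike median widths at similar rank up to rank 200. These were 474 bp in both at ranks 1 to 50.

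**Figure D3:**
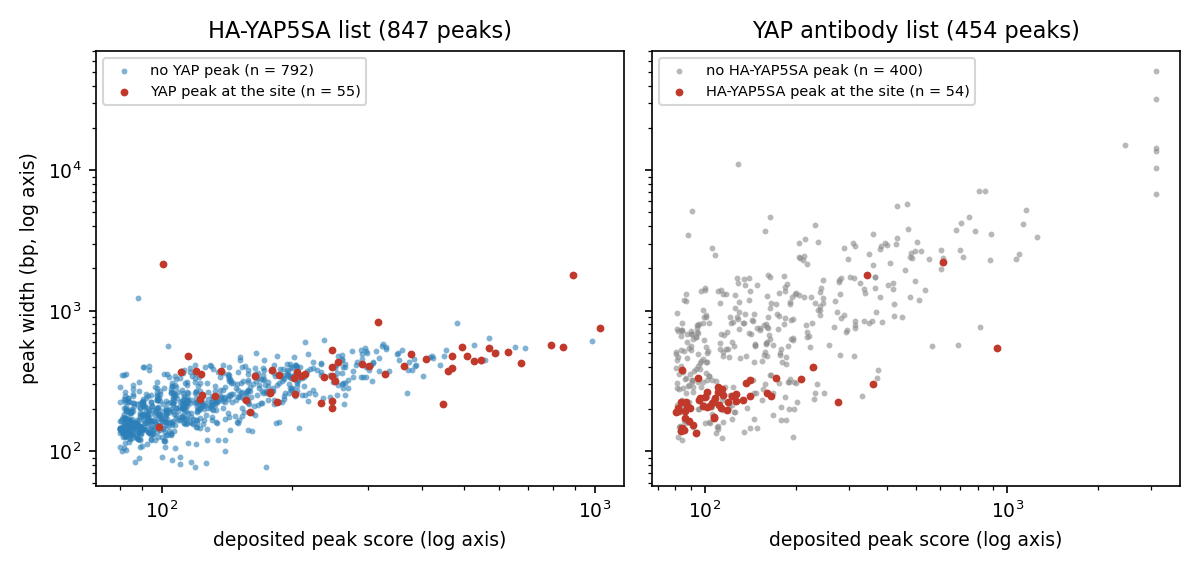
Peak width (bp, log axis) against deposited score (log axis) in the HA-YAP5SA list (left) and the YAP list (right), with peaks that overlapped the other list in red. In the left panel the red points lie along the upper end of a narrow band, while in the right panel they lie at its lower left, below a cloud of wider grey peaks up to 51110 bp.

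TEAD occupancy divided the YAP list but not the HA-YAP5SA list. Both TEAD1 and TEAD4 were present at 53 of the 55 HA-YAP5SA peaks with YAP (96.4%, interval 87.5 to 99.6%) and at 728 of the 792 without (91.9%, 89.8 to 93.7%). In contrast, 16 of the 400 YAP peaks without HA-YAP5SA carried both TEADs (4%, 2.30 to 6.41%) and 345 carried neither (86.3%, 82.5 to 89.5%). Read in the other direction, 52 of the 68 YAP peaks on both TEADs had an HA-YAP5SA peak (76.5%, 64.6 to 85.9%), against 1 of the 346 on neither TEAD (0.289%, 0.00732 to 1.60%). None of the 24 YAP peaks on TEAD1 alone was shared, which allows a share of up to 12.5%. A YAP peak on both TEADs with no YAP neighbour within 25 kb was shared in 51 of 59 cases (86.4%, 75 to 94.0%). The reverse share stayed low, since 53 of the 781 HA-YAP5SA peaks on both TEADs had YAP (6.79%, 5.12 to 8.78%).

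**Figure D4:**
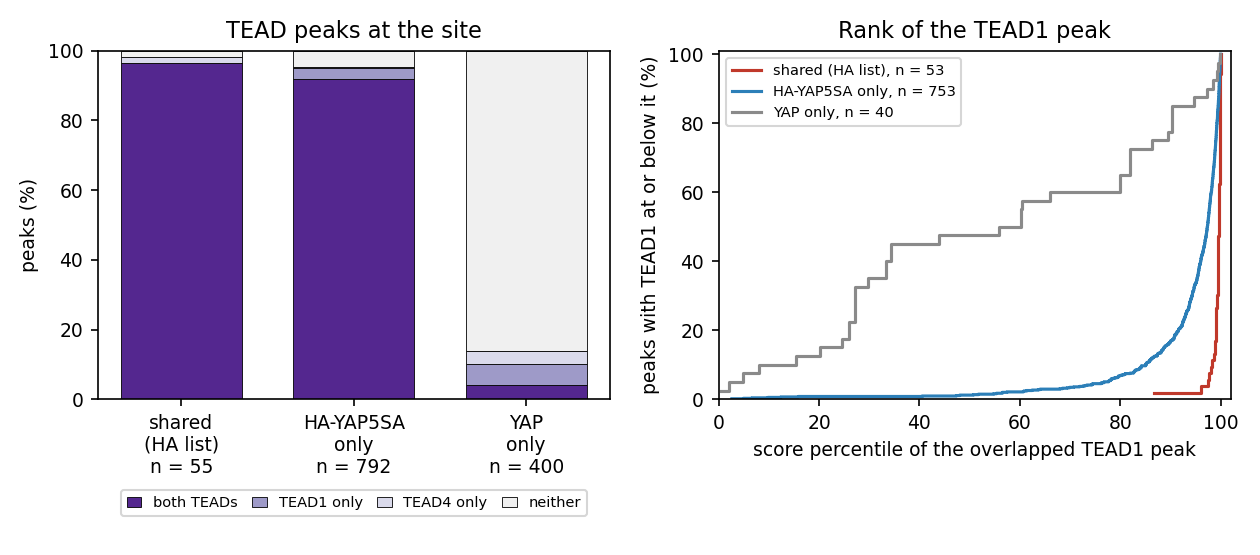
Left, share of peaks (percent) on both TEADs, on 1 of them or on neither, for the 55 shared HA-YAP5SA peaks, the 792 HA-YAP5SA peaks without YAP and the 400 YAP peaks without HA-YAP5SA. Right, cumulative share of those on a TEAD1 peak against the score percentile of that TEAD1 peak, where the shared sites (red, n = 53) rise last, with a median percentile of 99.6.

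Among TEAD1-bound sites, those found by both precipitations had the highest median TEAD1 score percentile. The overlapped TEAD1 peak had a median percentile of 99.6 in the TEAD1 list at shared sites (95% interval of the median 99.5 to 99.8, n = 53), 97.4 at HA-YAP5SA peaks without YAP (97.0 to 97.6, n = 753) and 58.1 at YAP peaks without HA-YAP5SA (29.8 to 81.9, n = 40). The TEAD4 percentiles at the corresponding sites were 99.3 (99 to 99.5), 92.6 (91.5 to 93.4) and 30.9 (21.5 to 66.9). Of HA-YAP5SA peaks on a TEAD1 peak in the top 1% of that list, 44 of 241 had YAP (18.3%, 13.6 to 23.7%), against 8 of 312 between the 95th and 99th percentile (2.56%, 1.11 to 4.99%), none of 126 between the 90th and 95th, which allows up to 2.38%, and 1 of 127 up to the 90th (0.787%, 0.0199 to 4.31%). Most of the strongest TEAD1 sites with a YAP antibody peak also had an HA-YAP5SA peak. Of the 382 TEAD1 peaks in the top 1%, 232 overlapped HA-YAP5SA, 46 overlapped YAP and 43 overlapped both.

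The classes differed in HA-YAP5SA rank, so TEAD scores were also compared at similar HA-YAP5SA rank, among HA-YAP5SA peaks on both TEADs. At ranks 1 to 50 the median TEAD1 score was 2314 at the 19 peaks with YAP (interquartile range 1962 to 2966) and 2063 at the 30 without (1495 to 2637), so the ranges overlapped widely. Within these ranks the median HA-YAP5SA score was still 508 with YAP and 409 without. At ranks 51 to 200 the median TEAD1 score was 1845 at the 20 peaks with YAP (1601 to 2409) and 1449 at the 126 without (1151 to 1872). At ranks beyond 200 it was 1567 at the 14 with YAP (1377 to 1837) and 1073 at the 572 without (752 to 1448). The order was the same in all 3 rank ranges, with overlapping quartiles in each. For TEAD4 the medians were 1241 and 1076 at ranks 1 to 50, 1230 and 724 at ranks 51 to 200, and 898 and 457 beyond. The TEAD4 quartile ranges overlapped at ranks 1 to 50 and 51 to 200. Beyond rank 200 they narrowly did not, with 695 to 1174 with YAP and 282 to 686 without. Median HA-YAP5SA widths were equal at ranks 1 to 50 (474 bp in both) and near equal at ranks 51 to 200 (348 and 350.5 bp). The median HA-YAP5SA scores at ranks 51 to 200 still differed, with 242 with YAP and 218 without. Beyond rank 200 the widths were not alike, with 263 bp with YAP and 198.5 bp without, and the median HA-YAP5SA scores there were 128 and 103. The median number of TEAD1 peaks within 25 kb, over all ranks, was 3 with YAP and 3 without.

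Some of the strongest YAP5SA sites had no YAP antibody peak within megabases. Such distances were usual for HA-YAP5SA peaks without YAP, with a median of 7947 kb. The second-ranked HA-YAP5SA peak, on chromosome 11 (18284158 to 18284766), had a score of 983 and lay on TEAD1 and TEAD4 peaks at percentiles 99.6 and 99.1, and the nearest YAP peak was 14608 kb away. The peak on chromosome 7 at 55035003 to 55035551 (score 654, rank 8) lay on the TEAD1 peak with the highest score of its list, 3147, and on a TEAD4 peak with a score of 2313. The nearest YAP peak was 6551 kb away. On chromosome 12 the peaks at 461497 to 462041 (rank 6), 26243937 to 26244576 (rank 13) and 3068176 to 3068988 (rank 21) had no YAP antibody peak. The remaining 5 of the 10 best such peaks were on chromosome 4 (102875061 to 102875570, rank 10), chromosome 20 (60936845 to 60937292, rank 14), chromosome 5 (165785145 to 165785583, rank 15), chromosome 7 (41066918 to 41067486, rank 18) and chromosome 11 (78076281 to 78076805, rank 25). All 10 lay on both TEADs, with TEAD1 percentiles from 95.8 to 100.

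HA-YAP5SA peaks without YAP were seldom close misses. Of the 792, 2 had a YAP peak within 1 kb. The first, on chromosome 3 (58546745 to 58546924), adjoined a shared HA-YAP5SA peak and lay 37 bp from its YAP peak. The second was on chromosome 22 (41222515 to 41222665), 475 bp from a YAP peak. Over the 767 on a chromosome with a YAP peak, the median distance was 7947 kb. The 792 peaks were spread over 592 windows of 1 Mb, and 703 of them had no other HA-YAP5SA peak within 25 kb (88.8%, interval 86.4 to 90.9%). None overlapped a TAZ peak, which allows a share of up to 0.379%. The TAZ list held only 153 peaks, and over all 847 HA-YAP5SA peaks 1 overlapped it (0.118%), so this absence is near the overall share.

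A small set of HA-YAP5SA peaks lay on no TEAD peak and on no YAP peak. These 38 peaks were narrow, with a median of 143.5 bp (78 to 1237 bp) and 30 of them under 200 bp, and their median score was 105. The highest-scoring one was on chromosome 2 (234633813 to 234634029, score 264, rank 86). Next came a peak on chromosome 12 (95421 to 95566, score 208, rank 139), 1 of 4 in the set that lay in the first 100 kb of a chromosome. Counting shared peaks too, neither TEAD was present at 25 of the 447 HA-YAP5SA peaks beyond rank 400 (5.59%, interval 3.65 to 8.15%) and at 1 of the best 50 (2%, 0.0506 to 10.6%), and these intervals overlapped.

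YAP peaks without HA-YAP5SA were crowded into a few places. The 400 peaks fell into 77 windows of 1 Mb, 318 of them were in windows with at least 5 YAP peaks (79.5%, interval 75.2 to 83.4%), and the 9 windows with 10 or more of them held 252 of the 400. No HA-YAP5SA peak lay in those 9 windows. Intervals for this crowded class take its peaks as independent and are likely too narrow. The 54 shared YAP peaks fell into 52 windows, none of them with 5 or more YAP peaks, which allows a share of up to 5.56%. The nearest other YAP peak was a median of 1.70 kb away for unshared YAP peaks (95% interval of the median 1.56 to 1.89 kb) and 6150 kb away for shared ones (2595 to 11479 kb). For HA-YAP5SA peaks without YAP the distance within their own list was 612 kb (495 to 797 kb).

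**Figure D5:**
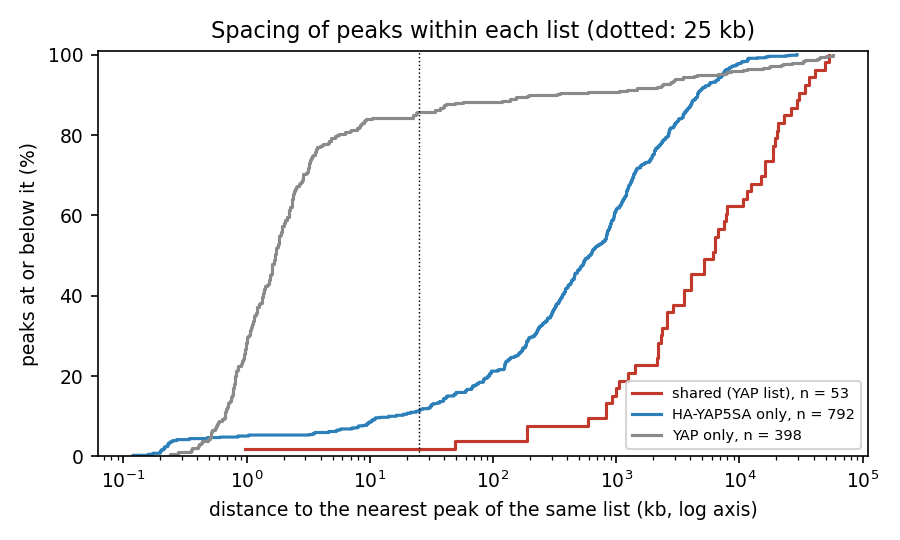
Cumulative share of peaks (percent) against the distance to the nearest peak of the same list (kb, log axis), for shared YAP peaks (red), HA-YAP5SA peaks without YAP (blue) and YAP peaks without HA-YAP5SA (grey), with 25 kb marked by a dotted line. Most grey peaks lie left of the line, with a median of 1.70 kb, and the other classes mostly to its right.

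The fullest windows differed in the width of their peaks. A scaffold of chromosome 9 that is not placed in the assembly (gl000199) held 53 unshared YAP peaks between 34297 and 166429, with a median width of 1196 bp, 14 of them overlapping TAZ. Chromosome 4 held 46 between 49093263 and 49659903 (median 869 bp), and chromosome 10 held 32 between 42356373 and 42600571 (median 908.5 bp). Chromosome X held 28 between 61682072 and 61761687, 19 of which overlapped TAZ. A group of 39 on chromosome 16 (58555042 to 58633252) had narrower peaks, of 127 to 390 bp with a median of 224 bp. Their scores ran from 95.2 to 374, 1 overlapped TAZ and none overlapped a TEAD. By contrast with the shared peaks, 65 of the 400 lay on scaffolds outside the assembled chromosomes (16.3%, 12.8 to 20.2%) and 12 on chromosome Y. Shared YAP peaks had 1 on such a scaffold and none on chromosome Y, which allows a share of up to 5.56%.

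On the assembled chromosomes, many unshared YAP peaks lay where TEAD1 had no peaks at all. For each chromosome the longest stretch without a TEAD1 peak was taken, which was between 3.52 and 31.5 Mb long and on many chromosomes takes in the gap that hg19 leaves at the centromere. Such stretches held 140 of the 335 unshared YAP peaks on assembled chromosomes (41.8%, interval 36.5 to 47.3%). They held 3 of the 792 HA-YAP5SA peaks without YAP (0.379%, 0.0782 to 1.10%), none of 53 shared YAP peaks and 7 of 12173 TEAD4 peaks (0.0575%, 0.0231 to 0.118%). A peak inside such a stretch cannot overlap TEAD1, which also bars every TEAD4 peak that lies on a TEAD1 peak. As 52 of the 54 shared YAP peaks and 753 of the 792 HA-YAP5SA peaks without YAP lay on TEAD1, most could not lie inside. Their low counts here therefore follow largely from the definition, whereas TEAD1 was at 40 of the 400 unshared YAP peaks. No TEAD1 peak lay within 25 kb of 287 of the 400 unshared YAP peaks (71.8%). The same held for 2 of the 54 shared ones (3.7%) and 30 of the 792 HA-YAP5SA peaks without YAP (3.79%). A peak on TEAD1 has TEAD1 within 25 kb by definition, so this contrast too largely restates the overlap with TEAD1. TAZ peaks overlapped 47 of the 400 unshared YAP peaks (11.8%, 8.76 to 15.3%) and 1 of the 54 shared ones (1.85%, 0.0469 to 9.89%). Over all 454 YAP peaks the share was 10.6%. The signal of the input and IgG libraries at these places was not analysed here.

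The highest scores of the YAP list belonged to this unshared class. Its 10 best peaks were 3320 to 51110 bp wide and held the first 10 places of the list. The highest score, 3100, was given to 6 of them, on chromosome 10 (42386890 to 42397295), chromosome 17 (22247311 to 22261714), chromosome 2 (92312485 to 92326178), chromosome 7 (61967156 to 61973948) and chromosome Y (58819364 to 58870473 and 58870601 to 58902580). A further peak on chromosome Y (58902586 to 58917656) scored 2454. Lower scores belonged to peaks on chromosome 19 (27731778 to 27735097, at 1259), on chromosome 8 with 1154 (43821289 to 43826508), and on chromosome 6 with 1125 (58776004 to 58780172). Of these, the chromosome 19 peak alone lay on both TEADs, and its nearest HA-YAP5SA peak was 20.9 kb away.

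The 16 unshared YAP peaks on both TEADs were of 2 kinds. The 8 with a YAP neighbour within 25 kb had a median width of 1385.5 bp and lay on TEAD1 peaks with a median percentile of 57.1. Some of these TEAD1 peaks were met by more than 1 of the 8 and count more than once in that median. The 8 without such a neighbour were narrower, with a median of 193 bp where shared YAP peaks had 228 bp. They lay on TEAD1 peaks with a median percentile of 96.6 (43.9 to 99.8). Among the latter, the chromosome 5 peak (53997115 to 53997304, YAP score 126) lay on a TEAD1 peak with a score of 2385, the chromosome 3 peak (50662150 to 50662373, YAP score 88.4) on one with 1789 and the chromosome 9 peak (84174721 to 84174879, YAP score 100) on one with 1708. Peaks on chromosome 12 (91381110 to 91381305), chromosome 1 (155437018 to 155437167), chromosome 11 (129731787 to 129731984) and chromosome 14 (49972219 to 49972345) had YAP scores from 81.3 to 115. A wide peak on chromosome 1 (121482999 to 121485441, 2443 bp) made up the eighth. The 1 unshared YAP peak within 1 kb of HA-YAP5SA, on chromosome 10 (49197191 to 49197393, YAP score 138), lay on a TEAD1 peak at percentile 97.3 and 786 bp from the HA-YAP5SA peak of a shared site. It was a neighbour of that site's YAP peak and so was counted in the first kind.

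YAP peaks without a YAP neighbour within 25 kb lay on TEAD sites more often than the others. Both TEADs were present at 59 of 112 such peaks (52.7%, 43.0 to 62.2%) and at 9 of the 342 others (2.63%, 1.21 to 4.94%), and neither TEAD at 43 of 112 (38.4%, 29.4 to 48.1%) and 303 of 342 (88.6%, 84.7 to 91.8%). Of the 59 unshared YAP peaks without a YAP neighbour within 25 kb, 42 lay on neither TEAD, with a median score of 90.9 and a median width of 309.5 bp, and 34 of these 42 had no TEAD1 peak within 25 kb. At most 500 bp wide, without a neighbour and on neither TEAD were 33 YAP peaks, of which none was shared, which allows a share of up to 9.09%.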

How the data were processed

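Peak lists of 5 ChIP-seq libraries were used, 1 library per antibody. Per the submitters' processing notes the tools include Bowtie2 and the genome was hg19. Deposited peaks carry names starting with MACS. For the caller, its version, threshold and control were not given in the sources used here. The score of each peak is the authors' own deposited value on a scale that is not stated, so scores were compared only within a list, apart from an alternative that kept scores of 100 or more in both lists. List length also depends on depth, which is unknown here, on the control and on the threshold.

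Starts in lists without a header were raised by 1, and coordinates are hg19. Overlaps of at least 1 bp were counted with Python 3.11.15, pandas 2.3.3, NumPy 2.4.6 and SciPy 1.17.1, drawn with matplotlib 3.10.9, and checked against bedtools 2.31.1 and on simulated peaks with planted overlaps. Shares carry exact 95% Clopper-Pearson intervals and medians distribution-free binomial intervals, and the limit given for a class without any peak corresponds to 3 peaks. That limit is lower than the exact upper bound, which for none of 24 is 14.2% where 12.5% is given. With 1 library per side no test was made. Where a peak met several TEAD peaks, the one with the highest score was taken. Windows were 1 Mb long, starting at the first base.

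The members, classes and lists were chosen with earlier results of these data known. The rank and width bins, neighbours within 25 kb, the windows, the TEAD1-free stretches, the comparison at similar rank and the sites named as near misses, on both TEADs without HA-YAP5SA or on neither TEAD were chosen after the lists had been seen. The other sites named are the 10 shared sites with the highest score in each list, the 10 best of each unshared class, shared sites lacking a TEAD, and sites with several partners. The gene and promoter tables at hand follow GRCh38, so no gene or sequence was assigned to a peak.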

Additional observations from a re-analysis of the deposited data

How the results depend on the processing

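Over 12 results and 13 alternatives, 67 of 83 values lay within the interval of the main value and 16 outside it. Other overlap rules (50% of the shorter peak, centres within 500 bp, edges within 1 kb), starts counted from 1, chromosomes 1 to 22 and X alone and other window lengths, the last chosen after seeing the data, moved none outside. The 2 score thresholds and the 2 changes of list length accounted for all 16, and each removes peaks by construction. When peaks below the median of their list were dropped, the shares were 2.12% of HA-YAP5SA and 3.96% of YAP peaks. Few shared peaks were then left, so their medians had wide 95% intervals. Their median percentiles, recomputed in the shortened lists, were 98.1 (85.6 to 99.5) and 47.6 (18.1 to 70.0). Median widths were then 507 bp (422 to 758 bp) with and 298.5 bp without YAP in the HA-YAP5SA list. In the YAP list they were 328 bp (248 to 544 bp) with and 1112.5 bp without HA-YAP5SA. HA-YAP5SA peaks without YAP carried both TEADs in 95%. With scores of 100 or more, the median YAP percentile was 23, the widths were 263 bp (HA-YAP5SA without YAP), 248.5 bp (YAP with HA-YAP5SA) and 859 bp (YAP without), and both TEADs were at 93.8% of HA-YAP5SA peaks without YAP. With as many HA-YAP5SA as YAP peaks the share was 11.5%, and without YAP peaks that had a neighbour it was 47.3%. No paired analysis was possible because each group has 1 library. Depth is unknown, so a site missing from a list was not shown to be unbound.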
